A study of Rattus norvegicus with 10 samples.

Results

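Liver RNA of 5 rats with cirrhosis that received vehicle was profiled, and this account describes the level of each gene in these livers and how far the rats differed among themselves. The livers were chosen by their labels alone, as the arrays marked as cirrhotic liver of weekly vehicle rats, biological replicates 1 to 5, and they are 5 of the 10 arrays of the series. All 10 animals were male Wistar rats, and all had inhaled CCl4, a solvent that hepatocytes turn into a toxic radical and that scars the liver when exposure is repeated. The vehicle rats were injected weekly without drug, whereas the other 5 rats received CVX-060, an inhibitor of angiopoietin 2, at 10 mg/kg a week for 4 weeks and appear below only as a second set of animals. Ages were not given in the sources used here, no healthy liver was analysed here, and each rat contributed an array of its whole liver, hybridised from 150 ng of RNA.

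In the liver, hepatocytes make most of the plasma proteins and carry the urea cycle, gluconeogenesis and drug metabolism. Sinusoidal endothelial cells line the blood channels between the plates of hepatocytes, Kupffer cells are the resident macrophages, and stellate cells store vitamin A. In cirrhosis, activated stellate cells and portal fibroblasts lay down fibrillar collagen, and strings of duct-like cells, the ductular reaction, spread from the portal tracts. All these cells were measured together, so that fewer cells of a type and less RNA per cell cannot be told apart.

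Values are log2 signals, so that 1 unit is a doubling of array signal. Probe sets bind with different strength, and a gene with a higher signal than another need not have more transcripts. A gene was represented by the probe set of highest mean over these 5 rats, among probe sets with a single gene symbol, which gave 14217 genes. Background was taken on each array from 31 probe sets for smell, pheromone and trace amine receptors, genes of sensory neurons, as the 95th percentile of their signals, and it lay between 5.65 and 5.84. By this measure, 8639 genes, 60.8% of those measured, were above background in all 5 rats, and 4460 genes, 31.4%, were above it in none. Between rats, 900 genes, 6.33%, had a standard deviation (SD) over 0.5. No test was made for any of these levels, and n = 5 rats throughout.

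Rat 2 stood apart from the other vehicle rats. Its correlation with them over the probe sets with a single gene symbol averaged 0.9792, where the other 4 rats had averages between 0.9853 and 0.9887. Of the 900 genes with SD over 0.5, rat 2 was the rat farthest from the median in 481, or 53.4%, against 36.7% of all genes. Without rat 2, 554 genes, 3.90%, had an SD over 0.5, of which 499 were among the 900. The probes for the 3′ end of actin mRNA exceeded those for its 5′ end by 1.35 to 1.69 in the 5 rats, and rat 2 with 1.54 lay inside this range. The control probe set for the 5′ end of BioB was lowest in rat 2, at 7.67 against 7.97 to 8.19. Counts of genes with SD over 0.5 are therefore given with and without it for several gene lists. Single genes mostly have no second value that leaves rat 2 out. The paper kept only 2 replicates per treatment after its quality control and did not name them, whereas all 5 vehicle arrays are described here.

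The brightest genes were nearly all secreted proteins of hepatocytes, and in the probe sets used they hardly differed between rats. Albumin, Alb, the main plasma protein, was the brightest, at 14.79, 14.80, 14.78, 14.81 and 14.81 in rats 1 to 5, a mean of 14.80 with an SD of 0.014. Haptoglobin, Hp, which binds free haemoglobin, followed at 14.38, 14.46, 14.45, 14.38 and 14.37. Such values lie near the top of the scale, and whether these probes were saturated was not tested. Below them came the vitamin D binding protein Gc at a mean of 14.32 ± 0.05 (SD), the lipoprotein component Apoc3 at 14.28 ± 0.08 and the thyroid hormone carrier Ttr at 14.28 ± 0.06. The third complement component C3 (14.26 ± 0.03), apolipoprotein Apoe (14.26 ± 0.05), the protease inhibitor Serpina1 (14.20 ± 0.03) and Ambp (14.20 ± 0.03) were also among the first 20. The 3 fibrinogen chains Fgg, Fgb and Fga, which form the clot, had means of 14.20, 14.17 and 14.02, and each was lowest in rats 2 and 4. The dimmer second probe sets of Fga and Gc spread more, with 10.72 to 12.89 (SD 0.97) and 10.34 to 11.55 (SD 0.49). That of Alb, at a mean of 14.67, had an SD of 0.02.

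Only a few of the 20 brightest genes were not secreted proteins. COX2 and COX1, subunits of cytochrome oxidase that the mitochondrial genome encodes, had means of 14.27 ± 0.07 and 14.16 ± 0.24. COX1 was the most variable of the 20, since rat 4 had 13.76 and the other rats had 14.12 to 14.38. The alcohol dehydrogenase Adh1c (13.98 ± 0.11) and the microsomal glutathione transferase Mgst1 (13.97 ± 0.08) stood 19th and 20th, and the cytochrome P450 Cyp2c7, with 13.96, lay just outside. The remaining genes were Rup2 (14.11), a urinary protein, Apoh (14.04), Serpina3c (13.99) and Apoc1 (13.99). Signals of 14 or more were reached by 16 genes, of 12 or more by 350 genes and of 10 or more by 1628 genes, 11.5% of those measured.

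The promoter of Alb is shown because it heads the list and holds the D-box letters, which the clock output factor Dbp, described further on, is known to bind. The 300 bases run from 250 before to 50 after the start of the RefSeq gene at chr14:17906930-17907229 on the minus strand of GRCr8. Capitals mark the D-box letters TTATGTAA, searched on both strands, which 0.893% of 33469 rat promoters of this length hold.
Alb: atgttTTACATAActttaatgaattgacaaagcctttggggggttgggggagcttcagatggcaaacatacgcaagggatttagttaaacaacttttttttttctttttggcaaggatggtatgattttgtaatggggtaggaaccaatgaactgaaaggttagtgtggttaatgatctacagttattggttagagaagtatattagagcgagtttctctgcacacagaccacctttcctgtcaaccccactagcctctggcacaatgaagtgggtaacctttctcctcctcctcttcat
The match starts 245 bases before the start and reads on the opposite strand. It is a match of letters and not a measured site.

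Hepatocyte genes were above background in all rats with few exceptions. All 23 measured genes of secreted proteins passed in all 5 rats, with a median of 13.99, and none had an SD over 0.5 in the probe set used. The nearest to that was Apoa1, the main protein of high density lipoprotein, at 12.61, 13.77, 13.21, 12.87 and 12.57, where rat 2 was highest. The 21 metabolic enzymes also passed in all rats, with a median of 12.91. Among them Pck1, the enzyme that commits carbon to gluconeogenesis, had 13.73 ± 0.08, the arginase Arg1 of the urea cycle had 13.72 ± 0.10, and Cps1, which starts that cycle, had 13.56 ± 0.05. Cyp7a1, the rate-limiting enzyme of bile acid synthesis, was 1 of only 2 enzymes whose SD passed 0.5, with 10.34 in rat 1 and 11.66 to 12.42 in the other rats.

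Transcription factors of hepatocytes lay lower, at a median of 9.50 over 14 genes. Cebpb (12.82 ± 0.05) and Hnf4a (12.51 ± 0.14) were the highest. Ppara, the fatty acid receptor, was not above background in any rat, with 4.58 to 5.50, and its probe set was the only one measured. Onecut1 differed between rats, at 11.93, 11.69, 11.72, 11.10 and 10.44, and so did Foxa2, at 9.41, 8.90, 8.13, 8.01 and 7.79. Rat 1 was highest and rat 5 lowest in both.

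Hepatocytes near the portal tract and near the central vein carry different enzymes, and genes of both zones were present. All 12 periportal genes were above background in all rats, with a median of 11.88. Of 10 pericentral genes 6, or 60.0%, passed in all rats, against 60.8% of all genes. Cyp2e1, the enzyme that activates CCl4, had 13.88, 13.95, 13.93, 13.95 and 13.67, a mean of 13.88. Glutamine synthetase, Glul, which marks the last cells before the central vein, had a mean of 10.44 ± 0.30. The Wnt receptor partner Lgr5 (3.64 to 4.03) was not above background in any rat. Of 20 cytochromes P450, 19 passed in all rats, and Cyp1a1, an enzyme induced through the Ahr receptor, passed in 4, with 5.64 in rat 1 and 7.45 to 9.10 in the others.

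**Figure D1:**
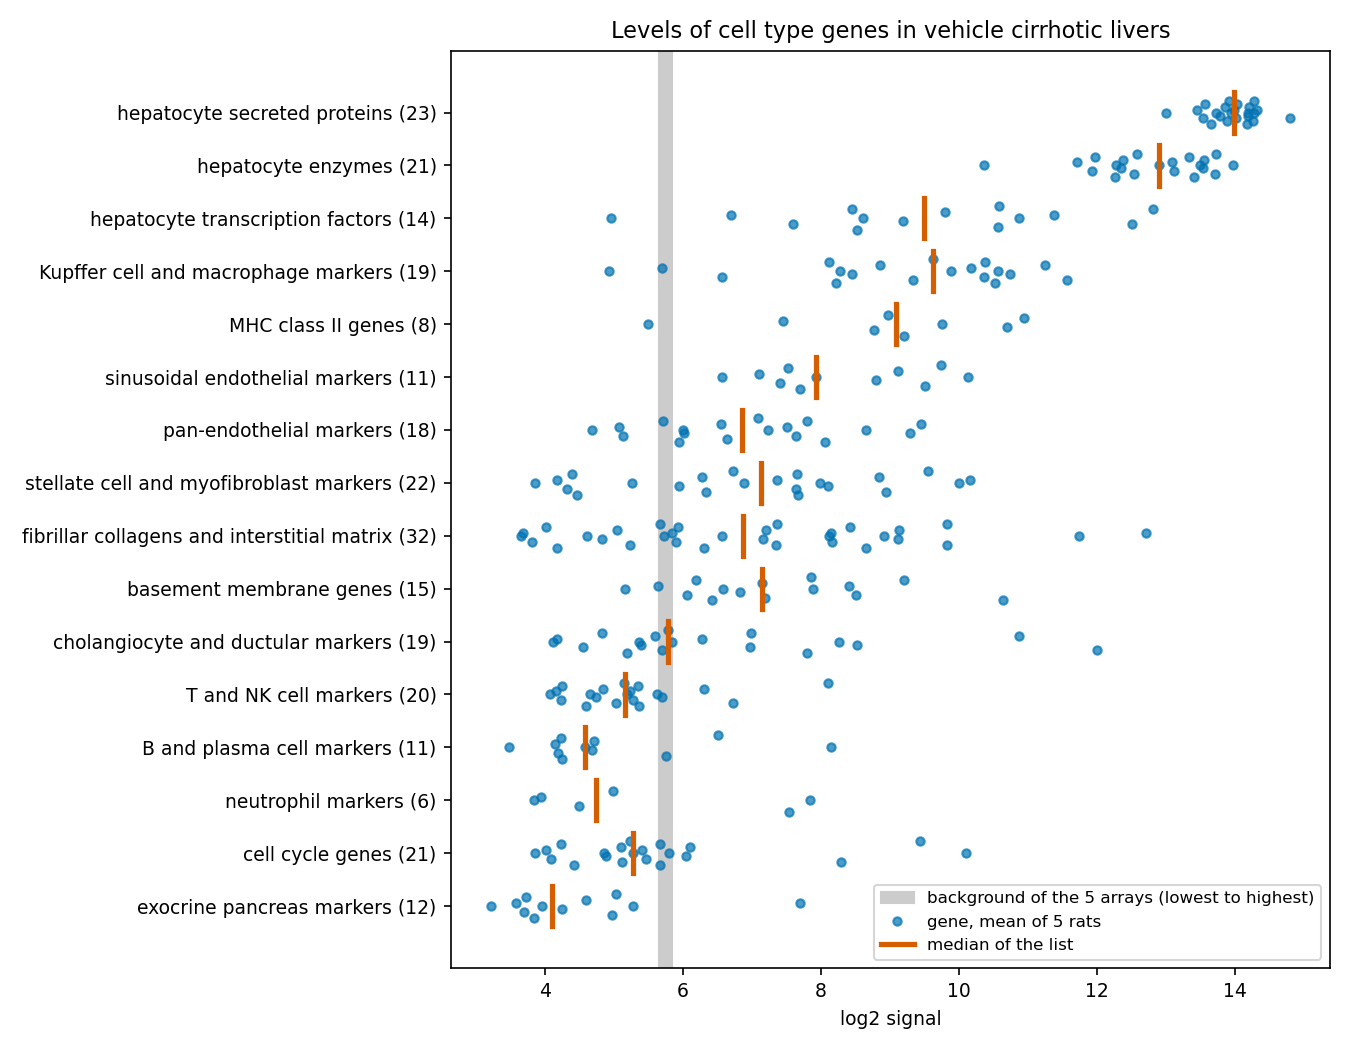
Mean log2 signal over 5 vehicle rats of each measured gene (point) in 16 gene lists, with an orange bar at each median and the range of the background over the 5 arrays (grey band). The number measured stands in brackets. Hepatocyte secreted proteins, with a median of 13.99, lie to the right of the other lists, and the medians of T and NK cell (5.17) and B and plasma cell markers (4.59) lie left of the grey band.

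Scar matrix was represented by a few bright genes and by many at or under background. Of 32 genes of fibrillar collagens and interstitial matrix, 17 were above background in all 5 rats and 9 in none, and the median of the list was 6.87. Thus 53.1% of these genes passed, against 60.8% of all genes. Fibronectin, Fn1, which hepatocytes also secrete, was the brightest at 12.72 ± 0.27. Collagen III, Col3a1, had 11.36, 11.99, 11.87, 12.06 and 11.48. Biglycan, Bgn, and Sparc, both matrix-bound glycoproteins, had means of 9.84 and 9.83, and Col14a1, a collagen on the surface of fibrils, had 9.11. Of the collagen I chains, Col1a2 had 9.13 ± 0.53 and Col1a1 had 7.21 ± 0.78. The genes not above background in any rat were Eln, Loxl2, Vcan, Fbln1, Fmod, Col5a3, Postn, Tnc and Mfap5.

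Many, though not all, of the matrix genes were highest in rat 2. In Col1a1 the rats had 6.29, 8.25, 7.46, 7.44 and 6.61, so that rat 2 was highest, rats 3 and 4 were between, and rats 1 and 5 were lowest. The elastic fibre protein Mfap4 had 7.27, 8.94, 8.43, 8.86 and 7.28, and the fibrillin Fbn1 had 6.33, 8.13, 7.49, 7.40 and 6.49, with the same split of rats. Rat 2 was highest in 19 of the 32 genes, where it was highest in 29.8% of all genes, and rat 5 was lowest in 19, against 19.05%. An SD over 0.5 was found in 12 genes, against 6.33% of all genes, and in 6 without rat 2, against 3.90%. Lox, which cross-links collagen, was above background in rat 2 alone, with 7.80 against 4.76 to 5.68, and osteoglycin, Ogn, had 10.00 in rat 2 and 7.43 to 7.80 in the other rats. The other 13 genes were highest in another rat, among them Lum, with 7.33 in rat 3, and the brightest gene Fn1, at 12.78, 12.46, 13.06, 12.41 and 12.86.

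Of 15 basement membrane genes 12, or 80.0%, passed in all rats, against 60.8% of all genes. They were led by Col18a1 (10.65 ± 0.22), the source of endostatin, and the linker Nid1 (9.21 ± 0.42). The laminin chain Lamb1 was the only one with an SD over 0.5, at 6.82, 8.08, 7.21, 7.39 and 6.46. Rat 2 was highest in 11 of the 15 genes, against 29.8% of all genes. Of 16 metalloproteinases and their TIMP inhibitors 8 passed in all rats and 8 in none, and rat 2 was highest in 5, against 29.8% of all genes, and lowest in 4, against 29.5%. Timp2 (9.05), Mmp14 (8.88) and the macrophage elastase Mmp12 (8.53) were the brightest, and Timp1, the inhibitor used as a fibrosis marker, had 8.35, 8.70, 7.37, 7.54 and 7.05. The collagenases Mmp8 and Mmp13 and the gelatinase Mmp9 were not above background in any rat.

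Stellate cell genes passed about as often as genes in general, and the markers of contractile myofibroblasts were uneven in level. Of 22 genes 14, or 63.6%, were above background in all rats, against 60.8% of all genes, with a median of 7.13. Ccn2, the connective tissue growth factor, was the brightest, at 9.63, 11.17, 10.59, 10.24 and 9.23, followed by Colec11 (10.01), Pdgfra (9.55), the filament protein Vim (8.95) and Reln (8.85). Lrat, the enzyme that stores vitamin A as esters, had 8.08, 7.34, 7.91, 8.66 and 8.52 and was lowest in rat 2. Rat 2 was highest in Cygb, at 6.86, 8.76, 7.83, 8.17 and 6.73, and in S100a6, at 6.58, 8.97, 7.90, 8.08 and 6.76. Smooth muscle actin, Acta2, the usual marker of activated stellate cells, had only 5.72 to 6.13 and passed in 4 of 5 rats. The contractile genes Myl9 (7.99) and Tagln, at 7.39, 8.41, 7.63, 8.07 and 6.71, passed in all. Tgfb1, Fap, Gfap, Cnn1, Thy1 and Ngfr passed in none.

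Ductular genes were mostly near background and differed between rats along with the matrix. Of 19 genes 8, or 42.1%, were above background in all rats, against 60.8% of all genes, with a median of 5.79. The keratins Krt18 (12.00) and Krt8 (10.88) are also made by hepatocytes. Epcam, an adhesion protein of duct and progenitor cells, had 7.11, 9.59, 8.79, 8.90 and 6.92. The duct keratin Krt19 had 4.30, 6.47, 5.83, 6.43 and 4.97 and passed in rats 2 and 4 alone, and Cd24 had 5.14, 7.11, 5.48, 6.39 and 4.79. Rats 1 and 5 were the lowest 2 rats in each of these 3 genes. Rat 2 was highest in 14 of the 19 genes, against 29.8% of all genes. Cftr, Ehf, Krt7 and Cldn4 were not above background in any rat. The SD passed 0.5 in 8 genes, against 6.33% of all genes, and in 5 without rat 2, against 3.90%.

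Sinusoidal endothelial genes were above background, and pan-endothelial genes passed about as often as genes in general. All 11 sinusoidal markers were above background in all rats, with a median of 7.93. The hyaluronan receptor Lyve1 had 10.19, 10.43, 9.56, 10.30 and 10.19, and the nuclease Dnase1l3 had 10.15, 9.90, 9.20, 9.81 and 9.66. Rat 3 was lowest in both, as in 7 of the 11 genes, against 19.1% of all genes. Fcgr2b (9.51), Mrc1 (9.12), Stab2 (8.81) and Gpr182 (7.93) completed the brightest 6, and Cd36, a fatty acid receptor of several cell types, was the only one with an SD over 0.5. Of 18 pan-endothelial genes 12, or 66.7%, passed in all rats, against 60.8% of all genes. Among them were Ptprb (9.45), Kdr (9.29), Eng (8.66), Egfl7 (8.06), Icam2 (7.79) and Esam (7.65). Rat 3 was lowest in 10 of the 18 pan-endothelial genes, again against 19.1%. The platelet adhesion protein Vwf had 7.67, 8.11, 7.51, 7.61 and 6.63, whereas Nos3 and Flt1 passed in none. Ccl21, a chemokine of lymphatic vessels, had 7.85, 10.83, 8.73, 8.94 and 6.95, highest in rat 2 and lowest in rat 5.

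The angiopoietin genes were named here after their values were seen, since the drug of the second group acts on this pathway. Angpt2 had 4.26, 4.90, 4.73, 4.85 and 4.37, and Angpt1 had a mean of 3.28, so that both ligands were under background in every vehicle rat. Their receptor Tek, on endothelial cells, was above it in all, with 7.79, 8.01, 7.17, 7.80 and 7.77. Vegfa, which signals through Kdr, had 10.06 to 10.36.

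Among immune cells, macrophage genes were bright and lymphocyte genes were not. Of 19 macrophage markers 17, or 89.5%, passed in all rats, against 60.8% of all genes, with a median of 9.62. Lyz2, lysozyme, had 11.45, 12.22, 11.63, 11.85 and 10.66, and Clec4f, a receptor found on Kupffer cells, had 10.55, 10.88, 10.64, 10.34 and 11.28. Mpeg1 (11.25), Gpnmb (10.57), Ctss (10.53) and Cd14 (10.38) were also among the brightest 6, and Itgam, the integrin of monocytes and neutrophils, was not above background in any rat. Rat 2 was highest in 13 of the 19 macrophage markers, against 29.8% of all genes. Antigen presentation varied more, and rat 2 was highest in all 8 MHC class II genes, again against 29.8%. Rat 5 was lowest in all 8, against 19.05% of all genes. The invariant chain Cd74 had 10.76, 11.87, 10.81, 11.13 and 10.16, and RT1-Da had 10.63, 11.69, 10.69, 10.72 and 9.81. The SD passed 0.5 in 5 of these 8 genes, against 6.33% of all genes, and in 1 without rat 2, against 3.90%.

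T and NK cell genes were mostly at background. Only Ccl5 (8.11), Lck (6.73) and Runx3 (6.31) of 20 passed in all rats, and 15, with Cd3e, Cd3d, Cd4, Cd8a and Gzmb among them, passed in none. Of 11 B and plasma cell genes, Jchain (8.15) and Cd22 (6.51) passed in all rats, and 8 in none. No gene of either list had an SD over 0.5. Mast cell genes were seen in some rats only, as Mcpt1, at 6.16, 7.63, 6.67, 7.22 and 5.49, and Cpa3, at 5.32, 7.37, 6.04, 6.37 and 5.24. Hdc, which makes histamine, had 8.78 in rat 2 and 5.33 to 5.42 in the others.

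Genes of tissues around the liver were looked at as a check on the samples. Of 12 exocrine pancreas genes, only Cela1 was above background in all rats, with 6.53 to 8.90, and defining genes such as Prss1, Ctrb1 and Amy2a3 were under it. Adiponectin (Adipoq), Plin1 and Lep of adipocytes were not above background in any rat, whereas Cidec (10.87), a lipid droplet protein, and Cfd (7.62) passed in all. Of 11 striated muscle genes, Myh1 alone passed in all rats, with 11.72, 11.15, 11.89, 11.71 and 11.65. Myh2, Myh4, Acta1, Ckm and Mb of the same tissue passed in none. The Y-linked genes Eif2s3y (8.99 to 9.36) and Uty (8.42 to 8.91) were above background in all 5 rats, as the label male requires, and Sry was under it.

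Among the genes that differed most between these livers, sex-pattern genes set rat 2 apart and inflammatory genes were highest in rat 1, while others had various orders of rats. The 30 genes of largest SD ranged from 3.61 to 1.71, where the median SD over all genes was 0.155. They were chosen by this spread, so that their values describe the rats and are no test. Just inside the SD threshold of 0.5 was Arhgap6, at 6.21, 6.46, 5.38, 5.99 and 5.34, and just outside was Itgal, at 7.59, 6.38, 7.55, 7.40 and 7.12. Rat 2 was the farthest rat in 14 of the 30 and rat 1 in 10. Of the 30, 25 kept an SD over 0.5 without rat 2, and 18 were still among the 30 largest. For 4 of the 30 genes another probe set existed, and in all 4 it also had an SD over 0.5 and the same lowest rat.

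**Figure D2:**
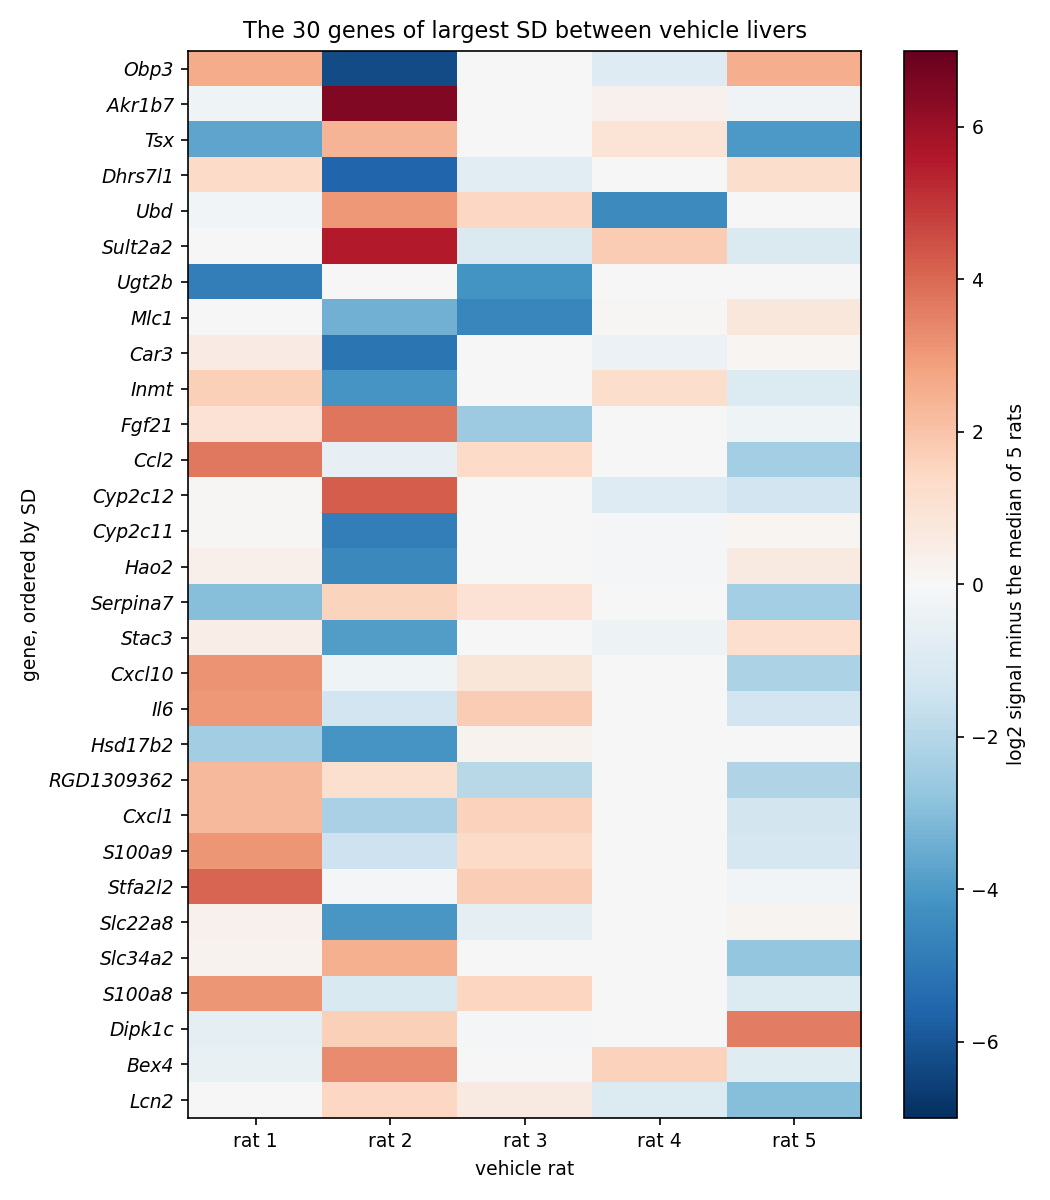
The 30 genes of largest SD (rows) by vehicle rat (columns), coloured by log2 signal minus the gene's median over the 5 rats, red above and blue below. Rat 2 holds the darkest cells, as blue in Obp3, Dhrs7l1 and Car3 and as red in Akr1b7 and Sult2a2, rat 1 is red in Il6, Ccl2 and S100a9, and Ugt2b is blue in rats 1 and 3.

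A first set was that of genes known to differ between male and female rat liver, through the pattern of growth hormone. In male rats, pulses of the hormone act by way of Stat5b and keep genes such as Cyp2c11 on, and the steadier hormone of females keeps Cyp2c12 on. In rat 2 these stood the other way around. Cyp2c11 had 13.87, 13.80, 13.68 and 13.93 in rats 1, 3, 4 and 5 and 8.99 in rat 2, a ratio of 30.9 between the highest and the lowest signal. Without rat 2 its SD went from 2.16 to 0.11. Cyp2c12 had 8.54, 8.44, 7.52 and 7.11 in those rats and 12.71 in rat 2.

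Both promoters are shown for this opposite pattern, with the TATA box letters TATAAA, searched on both strands and held by 14.2% of promoters, in capitals. They come from RefSeq, GRCr8, at chr1:246174966-246175265 on the plus strand for Cyp2c11 and chr1:248676985-248677284 on the minus strand for Cyp2c12.
Cyp2c11: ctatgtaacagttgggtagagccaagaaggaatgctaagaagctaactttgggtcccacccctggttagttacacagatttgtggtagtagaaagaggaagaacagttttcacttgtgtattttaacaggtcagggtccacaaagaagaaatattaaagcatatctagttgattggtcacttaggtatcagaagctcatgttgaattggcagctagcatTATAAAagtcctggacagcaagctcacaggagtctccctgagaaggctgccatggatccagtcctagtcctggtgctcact
Cyp2c12: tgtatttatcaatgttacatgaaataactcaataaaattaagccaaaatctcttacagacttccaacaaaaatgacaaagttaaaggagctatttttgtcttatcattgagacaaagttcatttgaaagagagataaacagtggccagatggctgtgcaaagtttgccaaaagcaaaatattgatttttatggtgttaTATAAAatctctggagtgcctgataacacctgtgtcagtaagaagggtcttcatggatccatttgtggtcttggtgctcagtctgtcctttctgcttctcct
The letters begin 31 bases before the start in Cyp2c11 and 52 bases before it in Cyp2c12.

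Further male-pattern genes gave the same picture. Obp3, a urinary lipocalin made in the liver, had the largest SD of all genes, with 13.03, 4.21, 10.46, 9.58 and 13.00, and was under background in rat 2 alone. Its second probe set had 11.67, 3.44, 9.77, 9.02 and 11.38, the same order of highest and lowest rat. The oxidase Hao2 had 6.33 in rat 2 against 10.67 to 11.42, Stac3 had 5.16 against 8.69 to 10.25, and the oestrogen sulfotransferase Sult1e1 had 10.27 against 13.29 to 13.58. Rat 2 was lowest in 14 of 15 male-pattern genes, where it was lowest in 29.5% of all genes, and the mean over the list was 9.83 in rat 2 and 11.92 to 12.34 in the other rats. The list was chosen with earlier results of these data known. Its members Cyp2c11, Obp3, Hao2 and Stac3 are among the 30 genes of largest SD. The count therefore describes rat 2 and is no test. The SD passed 0.5 in 9 of the 15 genes, against 6.33% of all genes, and in 2 without rat 2, against 3.90%. Members of the Cyp2c, Mup and Sult2a families are alike in sequence, and how far their probe sets bind each other's transcripts was not tested.

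Female-pattern genes were less uniform. Akr1b7, an aldo-keto reductase, had 10.79 in rat 2 and 3.98 to 4.57, under background, in the others. Sult2a2, a hydroxysteroid sulfotransferase, had 5.77, 11.35, 4.76, 7.54 and 4.75, and the repressor Cux2 had 7.12 in rat 2 against 5.02 to 6.08. The SD passed 0.5 in 5 of 13 female-pattern genes, against 6.33% of all genes, and in 3 without rat 2, against 3.90%. Rat 2 was highest in 8 of the 13, against 29.8% of all genes. It was not highest in Hao1, which had 11.69 there against 12.59 to 12.78, or in Prlr. A1bg and Sult2a1 were not above background in any rat.

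Other genes of large SD were low in rat 2 without being on these lists. The carbonic anhydrase Car3, abundant in liver and muscle, had 14.02, 8.30, 13.43, 13.02 and 13.58, and its other probe set had 13.16, 6.70, 11.79, 11.29 and 12.10. Dhrs7l1, a dehydrogenase, had 12.84, 5.98, 10.71, 11.52 and 12.73, and Inmt, a methyltransferase of indoles, had 11.20, 5.39, 9.53, 10.76 and 8.58. The organic anion transporter Slc22a8 had 5.57 in rat 2 and 8.99 to 9.97 in the others. Hsd17b2, which inactivates sex steroids, was low in rats 1 and 2, at 10.40 and 8.71, against 12.81 to 13.06.

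Rat 2 also had the highest signals of cell division and of fat oxidation. Of 21 cell cycle genes it was highest in 18, against 29.8% of all genes, although only Pcna (10.10), Ccnd1 (9.44), Cdkn1a (8.29) and Mcm5 (6.04) were above background in all rats. Cyclin D1, Ccnd1, had 7.96, 10.68, 9.51, 10.14 and 8.92, the kinase Cdk1 had 6.56 in rat 2 against 4.46 to 5.10, and Mki67 was under background in every rat. The SD passed 0.5 in 12 of the 21 cell cycle genes, against 6.33% of all genes, and in 5 without rat 2, against 3.90%. Of 17 genes of fatty acid oxidation and PPARα targets rat 2 was highest in 13, again against 29.8%. Of these 17, 8 had an SD over 0.5, and 3 without rat 2, again against 6.33% and 3.90%. Fgf21, a fasting hormone, had 9.16, 11.92, 5.58, 8.15 and 7.86, Pdk4, which spares glucose, had 11.75, 13.25, 10.64, 10.59 and 10.01, and the thioesterase Acot1 had 7.26 in rat 2 and 3.55 to 3.78 in the others. In the opposite direction, Thrsp, a factor of fat synthesis, had 10.51 in rat 2 and 12.93 to 13.53 in the others, and the fatty acid synthase Fasn had 9.80 against 10.85 to 11.63. These markers moved with the matrix, ductular and MHC class II genes in the same rat, and their part in one another was not tested.

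**Figure D3:**
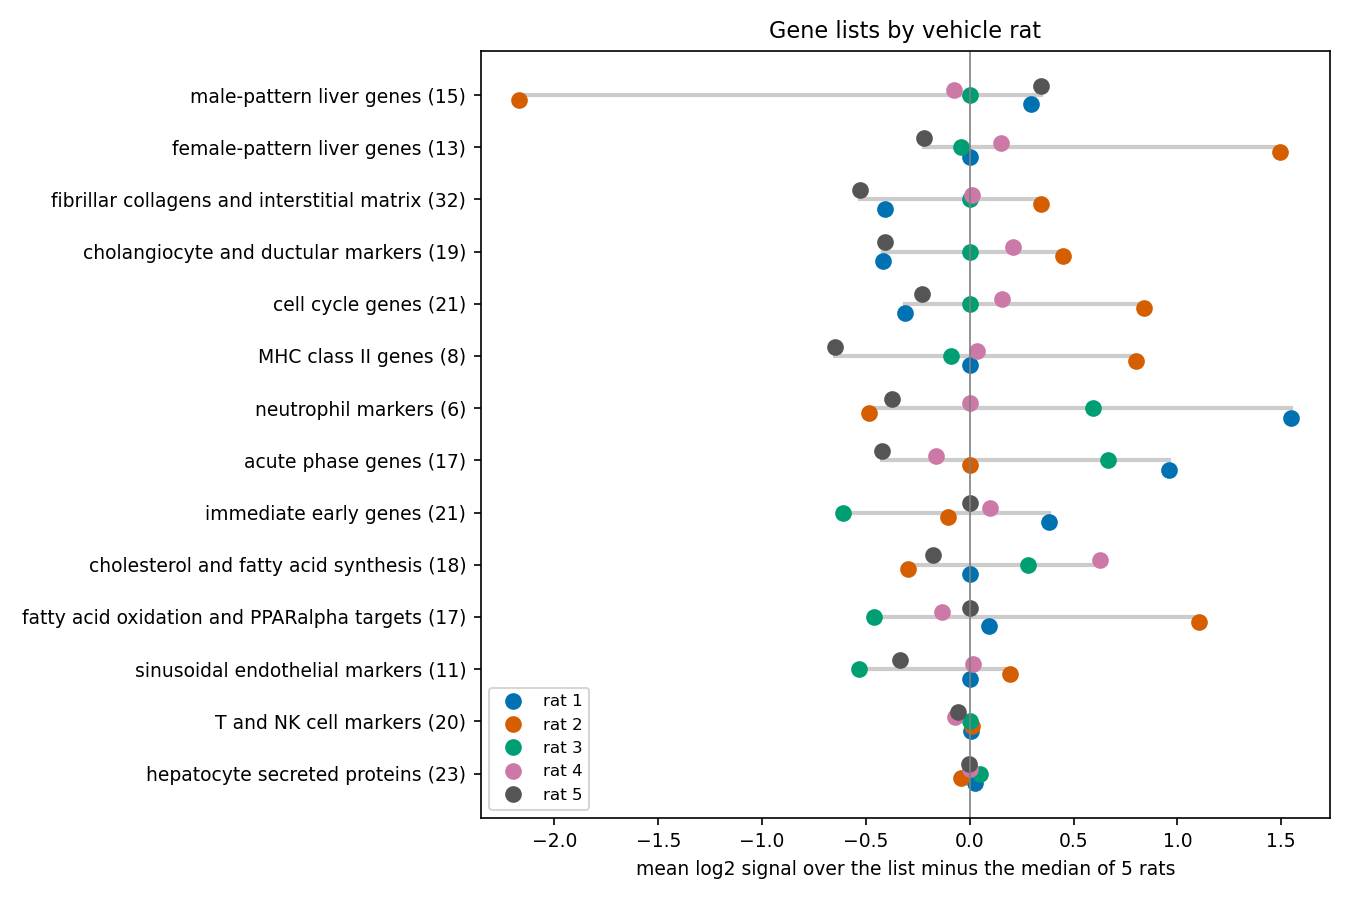
Mean log2 signal over each gene list in each vehicle rat (coloured points), minus the median of the 5 rats, with the number of genes measured in brackets. Rat 2 lies far left for male-pattern genes (9.83 against 11.92 to 12.34) and far right for female-pattern genes, rat 1 lies right for neutrophil and acute phase genes, and the 5 rats nearly coincide for T and NK cell markers and hepatocyte secreted proteins.

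A second set was inflammatory and was highest in rat 1. The cytokine Il6, which drives the acute phase in hepatocytes, had 7.98, 3.61, 6.75, 4.96 and 3.65, so that it was above background in rats 1 and 3 alone. Tnf had 7.85 in rat 1 and 4.14 to 5.31, under background, in the others, and Il1b had 11.29, 8.64, 9.92, 9.38 and 7.30. The chemokines for neutrophils and monocytes followed the same course. Cxcl1 had 13.16, 8.59, 12.50, 10.87 and 9.59, Ccl2 had 11.46, 7.24, 9.11, 7.79 and 5.43, and Cxcl10, an interferon-induced chemokine, had 11.75, 8.28, 9.42, 8.59 and 6.38. In each of these 6 genes rat 1 was highest and rat 3 was second.

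The promoters of Cxcl1 and Il6 are shown as examples of this set, with the letters of an NF-kB element in capitals (GGG, any 3 bases, then TTCC), searched on both strands, which 5.37% of promoters hold. Cxcl1 lies at chr14:17479272-17479571 on the minus strand and Il6 at chr4:5894526-5894825 on the minus strand, both of GRCr8 and from RefSeq.
Cxcl1: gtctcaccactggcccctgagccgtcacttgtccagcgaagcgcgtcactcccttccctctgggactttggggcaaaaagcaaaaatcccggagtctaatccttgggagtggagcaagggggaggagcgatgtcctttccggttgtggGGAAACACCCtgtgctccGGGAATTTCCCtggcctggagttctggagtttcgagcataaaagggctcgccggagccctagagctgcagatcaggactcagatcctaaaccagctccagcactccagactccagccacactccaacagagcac
Il6: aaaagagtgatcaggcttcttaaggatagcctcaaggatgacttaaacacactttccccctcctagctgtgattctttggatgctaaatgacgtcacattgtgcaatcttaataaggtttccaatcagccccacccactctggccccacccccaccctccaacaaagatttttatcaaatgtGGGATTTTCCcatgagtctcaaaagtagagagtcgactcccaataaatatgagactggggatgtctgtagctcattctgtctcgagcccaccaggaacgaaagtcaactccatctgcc
Cxcl1 holds 3 matches, starting 102, 84 and 83 bases before the start, of which the last 2 overlap, and Il6 holds 1, starting 68 bases before it. Of the 30 genes of largest SD 24 had a promoter in the table, and 6 of these, namely Cxcl1, Cxcl10, Fgf21, Il6, Lcn2 and Ubd, held the letters.

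Neutrophil and acute phase genes varied along with the cytokines. The calgranulins S100a8 and S100a9, which neutrophils hold in large amounts, had 10.13, 5.94, 8.51, 7.01 and 6.08, and 10.57, 6.02, 8.83, 7.47 and 6.30. Rat 1 was highest in all 6 neutrophil genes, against 21.0% of all genes, but the other 4, among them Csf3r and Cxcr2, were under background in every rat. Stfa2l2, a protease inhibitor of the stefin A family, had 7.38 in rat 1 and 3.12 to 5.00 in the others. The liver proteins that respond to Il6 were uneven. Hp, Cp (13.71), Orm1 (13.65), the iron hormone Hamp (13.45), Serpina3n (13.21) and Crp (13.12) had SDs of at most 0.31, whereas A2m, the macroglobulin that rats make in the acute phase, had 10.57, 8.04, 9.82, 6.76 and 7.32. Socs3, which ends the Il6 signal, had 7.67 and 7.64 in rats 1 and 3 and 6.07 to 6.22 in the other 3. Lcn2 and Ubd did not follow, since both were highest in rat 2, at 9.94 and 12.69, and Ubd was lowest in rat 4, at 5.20.

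Outside the 30, several genes of the circadian clock split rats 1 and 2 from rats 3, 4 and 5. The clock runs as a loop in which Bmal1 with Clock or Npas2 switches on the Per, Cry, Nr1d and Dbp genes, and these in turn hold it back. Bmal1 had 7.90 and 7.95 in rats 1 and 2 and 5.13, 4.87 and 4.88, under background, in rats 3, 4 and 5. Dbp, an output factor that binds D-box letters, had 7.01 and 6.76 against 9.62, 10.04 and 9.88. Per3 had 6.12 and 6.45 against 7.41, 7.37 and 7.51. In the probe set used, Tef, a relative of Dbp, had 7.96 and 7.56 against 8.54, 8.70 and 8.71. Another Tef probe set did not split the rats in this way, with 7.43, 5.88, 7.15, 7.88 and 7.50 in rats 1 to 5. The repressor Nfil3 had 11.07 and 11.13 against 10.26 to 10.29. Npas2 was above background in rat 2 alone, at 7.71, and Per1 hardly differed, with 9.05 to 9.38. Of 17 clock genes 9 had an SD over 0.5, against 6.33% of all genes, and 6 without rat 2, against 3.90%. The hour at which each liver was taken was not given in the sources used here.

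**Figure D4:**
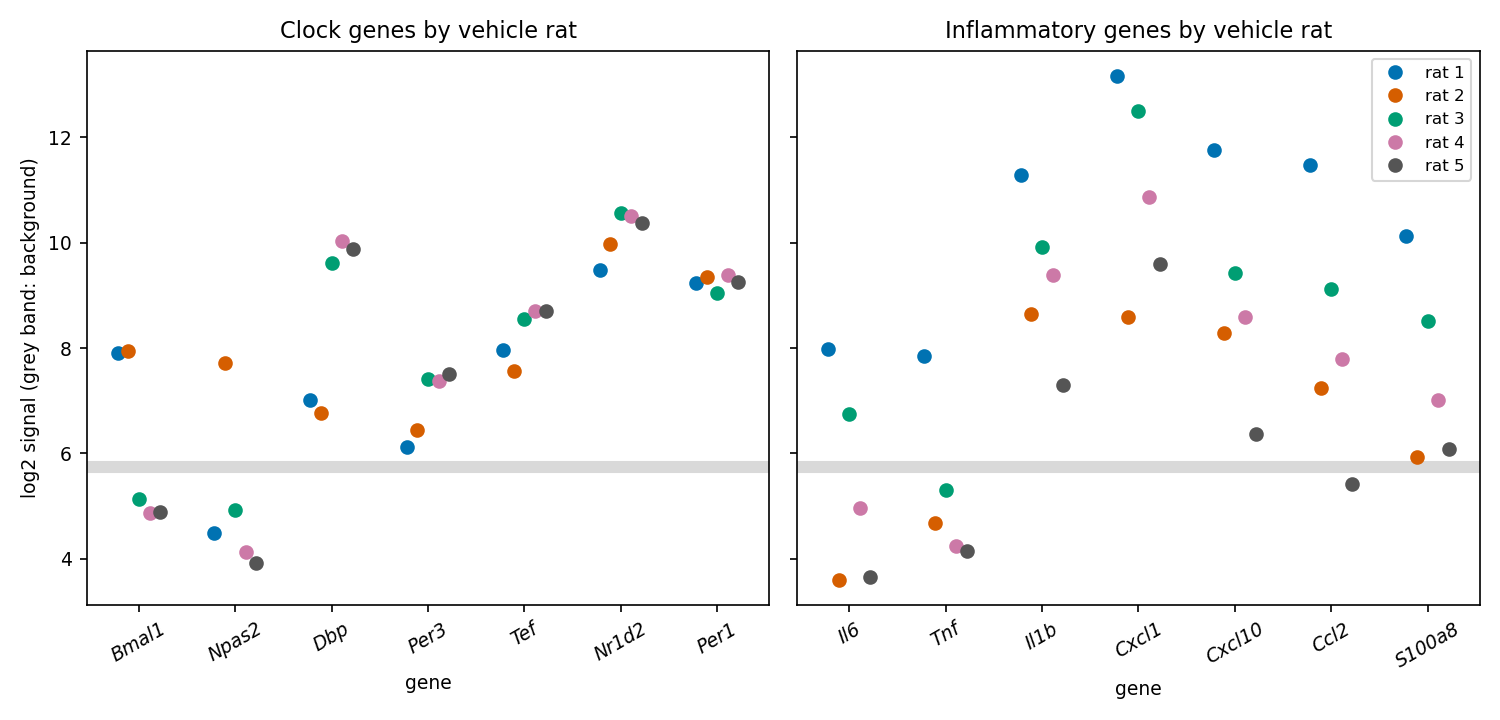
Log2 signal of 7 clock genes (left) and 7 inflammatory genes (right) in each vehicle rat (coloured points), with the range of the background over the 5 arrays as a grey band. Rats 1 and 2 lie above rats 3, 4 and 5 in Bmal1 and below them in Dbp, Per3, Tef and Nr1d2, and rat 1 is highest in all 7 inflammatory genes.

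Promoters of 3 clock genes are shown to set their known control letters beside this split, all from RefSeq on GRCr8. In capitals stand the ROR element TNGGTCA in Bmal1 (chr1:176766078-176766377, plus strand), the E-box CACGTG in Tef (chr7:115206577-115206876, plus strand) and the D-box TTATGTAA in Per2 (chr9:99496944-99497243, minus strand). Searched on both strands, these occur in 11.1%, 6.42% and 0.893% of promoters.
Bmal1: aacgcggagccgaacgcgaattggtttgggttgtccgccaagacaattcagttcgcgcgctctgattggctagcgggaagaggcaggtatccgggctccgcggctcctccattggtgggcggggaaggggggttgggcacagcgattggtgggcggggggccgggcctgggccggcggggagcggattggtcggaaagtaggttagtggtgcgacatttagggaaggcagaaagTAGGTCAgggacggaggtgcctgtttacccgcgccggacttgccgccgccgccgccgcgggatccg
Tef: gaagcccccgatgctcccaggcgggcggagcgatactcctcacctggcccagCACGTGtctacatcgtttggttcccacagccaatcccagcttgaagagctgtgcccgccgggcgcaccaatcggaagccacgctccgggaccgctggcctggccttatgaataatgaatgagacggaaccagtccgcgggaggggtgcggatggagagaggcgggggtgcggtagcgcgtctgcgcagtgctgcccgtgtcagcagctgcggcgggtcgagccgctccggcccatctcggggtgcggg
Per2: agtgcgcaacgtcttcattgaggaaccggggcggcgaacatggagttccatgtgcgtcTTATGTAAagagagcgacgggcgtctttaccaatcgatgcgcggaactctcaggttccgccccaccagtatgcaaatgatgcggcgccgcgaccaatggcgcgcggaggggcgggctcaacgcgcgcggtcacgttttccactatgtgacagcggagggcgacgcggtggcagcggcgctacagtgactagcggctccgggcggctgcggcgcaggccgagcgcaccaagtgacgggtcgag
The ROR element letters begin 16 bases before the start of Bmal1, the E-box 198 bases before that of Tef and the D-box 192 bases before that of Per2. Per2 itself did not split the rats in this way, with 9.76, 8.29, 9.16, 10.06 and 9.57.

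Immediate early genes, which cells switch on within minutes of a stimulus, made a further set. Of 21 genes 13 had an SD over 0.5, against 6.33% of all genes, and 12 without rat 2, against 3.90%. Fos had 10.45, 9.40, 7.96, 10.76 and 11.05, Jun had 12.18, 11.77, 10.29, 11.87 and 12.31, and Dusp1, a phosphatase that limits such signals, had 12.86, 12.72, 11.56, 12.74 and 13.21. Rat 3 was lowest in these 3 genes and in 11 of the 21, against 19.1% of all genes, while rat 1 was highest in 11, against 21.0%. Jund, another member of the family, hardly differed, with 11.13 to 11.24.

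Several enzymes of sterol synthesis were lowest in rat 5, and some of fatty acid synthesis in rat 2. The lanosterol demethylase Cyp51 had 11.96, 11.84, 12.03, 11.99 and 10.83, the isomerase Idi1 had 9.52 in rat 5 against 10.71 to 11.04, and Dhcr7, the last enzyme of the pathway, had 8.73 against 9.66 to 10.38. The citrate lyase Acly, on the side of fatty acids, had 11.40, 10.57, 11.67, 12.51 and 11.80. On the same side, Me1 was lowest in rat 3 and Elovl6 in rat 1 in the probe sets used. Over the 18 genes of both pathways, rat 5 was lowest in 9, against 19.05% of all genes, and rat 2 in 7, against 29.5%. Rat 4 was highest in 14 of the 18, against 15.9%.

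In Ugt2b and Mlc1 the rats lay at 2 well separated levels. Ugt2b, a glucuronosyltransferase gene, had 13.37, 13.37 and 13.38 in rats 2, 4 and 5 and 8.52 and 9.18 in rats 1 and 3. Its other probe set had 10.48, 10.77 and 11.07 in rats 2, 4 and 5 and, under background, 3.71 and 4.03 in rats 1 and 3. In the 5 CVX-060 rats it lay between 13.05 and 13.32. Mlc1, a membrane protein known from astrocytes, had 9.52, 9.62 and 10.32 in rats 1, 4 and 5 and 6.17 and 4.93 in rats 2 and 3. Tsx had 10.41, 8.02 and 8.96 in rats 2, 3 and 4 and 4.31 and 4.00, under background, in rats 1 and 5. The thyroxine carrier Serpina7 had 9.74, 9.22 and 8.21 in rats 2, 3 and 4 against 5.21 and 5.83 in rats 1 and 5. Both genes were more graded, and their largest gap was under 60% of their range. Rats 1 and 5 were the lowest 2 in Col1a1 and Epcam as well.

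The remaining genes of the 30 were on none of the lists described above. Slc34a2, a phosphate transporter, had 7.72, 9.94, 7.45, 7.47 and 4.76, and Dipk1c was highest in rat 5, with 8.74 against 4.47 to 6.84. Bex4 had 3.86, 7.73, 4.41, 6.01 and 3.57, and RGD1309362 had 8.59, 7.45, 4.36, 6.31 and 4.18. Next in order, as the first gene outside the 30, was Ntf3, at 9.62, 5.28, 7.47, 8.69 and 8.67, with an SD of 1.67.

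The spread of the same genes was then read in the 5 CVX-060 rats, which the choice of genes had not used. There, 959 genes, 6.75%, had an SD over 0.5, of which 505 were among the 900 of the vehicle rats, or 56.1% of the vehicle genes and 52.7% of the CVX-060 genes. Of the 30 genes of largest SD, 29 had an SD over 0.5 in the CVX-060 rats, and the exception was Ugt2b, with 0.11. Obp3 had an SD of 2.81 there, Ubd 3.02, Tsx 2.43, Cyp2c12 2.08 and Cyp2c11 0.99. A CVX-060 animal, rat 5, had the lowest mean correlation with its group, 0.9845, here over all probe sets. Without this rat 701 genes, 4.93%, had an SD over 0.5. Then 27 of the 30 genes remained over 0.5, with Mlc1 (0.35) and Bex4 (0.43) below it besides Ugt2b. Without either of these rats, 286 of the 554 vehicle genes, or 51.6%, had an SD over 0.5 in both groups. Both groups had inhaled CCl4.

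**Figure D5:**
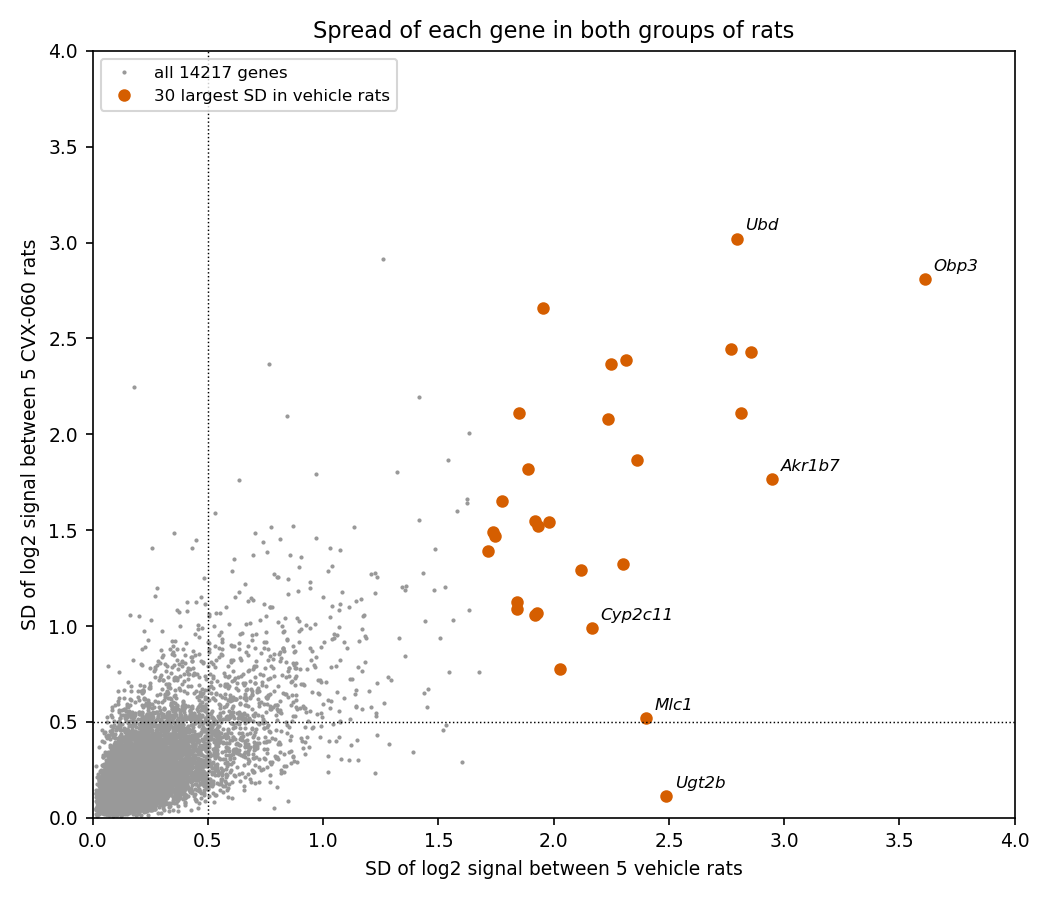
SD of log2 signal between the 5 vehicle rats (x axis) and between the 5 CVX-060 rats (y axis) for each of 14217 genes (grey), with the 30 genes of largest SD in vehicle rats in orange and dotted lines at 0.5. All orange points but Ugt2b, which has an SD of 0.11 in the CVX-060 rats, lie above the horizontal line.

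Most genes had a small SD between these livers, and the SD was smallest at low signal. In the 10% of genes of lowest mean signal the median SD was 0.097, against 0.172 in the brightest 10%. An SD under 0.1 was found in 3247 genes, 22.8% of those measured, and an SD over 1 in 137. The gene at the 90th percentile had an SD of 0.405. Of the 7 reference genes measured none had an SD over 0.5, with B2m at 13.73 ± 0.05, Eef1a1 at 13.52 ± 0.11 and Rplp0 at 12.42 ± 0.18. Their median SD, 0.181, lay above that of all genes, 0.155, and near the 0.172 of the brightest 10%. Rat 2 was highest in 6 of the 7, against 29.8% of all genes, and Tubb5, a tubulin, had 8.67, 9.75, 8.92, 8.94 and 8.60.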

How the data were processed

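RNA of whole liver was hybridised to Affymetrix 3′ expression arrays of the rat genome, and the deposited log2 signals were normalized by the authors. The background and summary method is not given in the sources used here; R 3.4.0 with limma 3.38.2 and affy 1.56.0 stands in the notes on processing from the submitters. Of 31099 probe sets, 20826 had a single gene symbol in the platform annotation and stood for 14217 genes. Means, SDs and ranks were computed with Python 3.11.15, numpy 2.4.6 and pandas 2.3.3, and the code was tested on simulated data. No sample column was left unmapped. The array count, 5 rats, limits the precision.

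The members and the 36 gene lists were chosen with earlier results of these data known. Named were the 20 brightest genes, the 30 of largest SD and, per list, up to 6 brightest members, members with SD over 0.5 and members not above background in any rat. Other named genes were chosen after their values were seen. Of 570 listed symbols 489 were measured. Alternatives changed the probe set, background, normalization, low-signal filter and measure of spread, or left out a rat. Promoters came from RefSeq, assembly GRCr8.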

Additional observations from a re-analysis of the deposited data

Results flagged for a closer look

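In a group of 5 rats, a value was picked out where the gap between the highest or lowest rat and its neighbour exceeded 0.71 of the range. Chance alone picks about 1 in 20 such groups, a rate that does not hold for genes chosen for their spread or after their values were seen, as many of those below were. Of 36 gene lists 2 were picked out, a share near 1 in 20, and both for rat 2. The lists too were chosen with earlier results of these data known. The mean over male-pattern genes was 9.83 in rat 2 and 11.92 to 12.34 in the others, and that over female-pattern genes was 9.51 against 7.79 to 8.16.

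Of 243 genes named, 29 were picked out, 17 of them for rat 2. Rat 2 was high in Acot1 (7.26 against 3.55 to 3.78), Akr1b7 (10.79 against 3.98 to 4.57), Cyp2c12 (12.71 against 7.11 to 8.54), Eef1a1 (13.71 against 13.41 to 13.50), Hdc (8.78 against 5.33 to 5.42), Npas2 (7.71 against 3.93 to 4.93) and Ogn (10.00 against 7.43 to 7.80). It was low in Adipoq (4.65 against 4.81 to 4.83), Car3 (8.30 against 13.02 to 14.02), Cyp2c11 (8.99 against 13.68 to 13.93), Fap (4.29 against 4.49 to 4.54), Hao1 (11.69 against 12.59 to 12.78), Hao2 (6.33 against 10.67 to 11.42), Rup2 (13.81 against 14.15 to 14.23), Slc22a8 (5.57 against 8.99 to 9.97), Sult1e1 (10.27 against 13.29 to 13.58) and Thrsp (10.51 against 12.93 to 13.53). Rat 1 was high in Lgr5 (4.03 against 3.64 to 3.72), Mmp9 (4.99 against 4.21 to 4.25) and Vegfa (10.36 against 10.06 to 10.10). Rat 3 was low in Gpr182 (7.16 against 7.96 to 8.24), Jun (10.29 against 11.77 to 12.31), Lyve1 (9.56 against 10.19 to 10.43) and Tek (7.17 against 7.77 to 8.01). Rat 4 was high in Postn (4.02 against 3.74 to 3.79). Rat 5 was low in Cyp2e1 (13.67 against 13.88 to 13.95), Cyp51 (10.83 against 11.84 to 12.03) and Idi1 (9.52 against 10.71 to 11.04), and high in Eif2s3y (9.36 against 8.99 to 9.07). Adipoq, Fap, Lgr5, Mmp9 and Postn were under background in every rat.

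Of the probe sets without a single gene symbol, which the comparisons above do not use, 2545 were above background in all 5 vehicle rats.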

How the results depend on the processing

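No paired analysis was possible because only levels and spreads within a single group were described and no test was made. Over 14 alternatives 5470 values were recomputed, of which 5275 stayed within the limit set and 195 did not, and the cause was not tested. For gene means, gene SDs and list medians the limit was the spread between rats, and for counts it was a fixed ratio. With the median absolute deviation in place of the SD, 14 of the 30 genes of largest spread were kept. Leaving out single rats kept between 18 and 29 of them and gave between 554 and 1084 genes with SD over 0.5, the lowest of both without rat 2. With the median over all probe sets of a gene, list medians were 4.50 for B and plasma cell, 8.95 for macrophage, 6.48 for fibrillar matrix, 13.85 for hepatocyte secreted and 6.50 for pan-endothelial genes. With the probe set of highest variance they were 9.33 for macrophage, 13.85 for hepatocyte secreted and 6.81 for stellate cell genes. Leaving out single rats gave B and plasma cell medians from 4.55 to 4.63, and a hepatocyte secreted median of 14.02 without rat 2. With background at the 99th percentile, the genes above it in all rats were 1 for B and plasma cells, 1 for T and NK cells, 7 for pan-endothelial and 9 for stellate cell genes. At the 90th percentile, 12 T and NK cell genes were above it.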

Other observations

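Among genes with SD over 0.5, 43 split the rats into 2 against 3 with a gap of at least 60% of their range. The pair of rats 1 and 5 stood apart in 13 of these, rats 1 and 2 in 8 and rats 1 and 3 in 6, and rats 3 and 4 in 0. The potassium channel gene Kcnj15, chosen after its values were seen, split like Bmal1, with 5.04 and 4.84 in rats 1 and 2 and 7.55, 7.83 and 7.87 in rats 3, 4 and 5.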
